A study of Homo sapiens with 4 samples.

Results

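The NRF2 and electrophile response is described here through 39 genes, selected by symbol, out of 63241 genes in the deposited count table. Each of the 39 had exactly 1 row in the table. They comprise 6 regulators of the pathway, 4 genes of the thioredoxin arm, 5 of the glutathione arm and 4 of haem and iron handling. The rest are 4 genes grouped under NADPH supply, 9 detoxification enzymes, 4 exporters of the ABCC family and 3 further targets. AKR1B10 had at most 2 counts in any library and did not reach 1 CPM (counts scaled to a common library size, defined below), so 38 of the 39 were measured.

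RNA was sequenced from LX-2, an immortalised human hepatic stellate cell line. All cells were serum-starved in 0.5% serum for 24 h. The control library came from cells for which no cytokine or compound is named. The second came from cells given TGF-β at 20 ng/mL for 24 h. DMSO appears in the description of the TGF-β library but not in that of the control, so vehicle and cytokine cannot be told apart in that comparison. The other 2 came from cells given the same TGF-β together with BDS4 or with RVX-208 at 5 µM. Their descriptions do not name DMSO either, so whether their vehicle matched that of the TGF-β library is not known. RVX-208 (apabetalone) is an inhibitor of the BET bromodomain proteins, and BDS4 is a code name from a study on inhibitors of the first bromodomain of BET proteins. Groups had 1 library each, all of 1 cell line, so no difference below could be set against the spread between cultures. Intervals in brackets are 95% exact intervals that cover counting error only.

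NRF2, encoded by NFE2L2, is a transcription factor that KEAP1 normally holds in the cytoplasm and delivers for degradation. When electrophiles or oxidants modify sensor cysteines of KEAP1, NRF2 escapes, pairs with a small MAF protein (MAFF, MAFG or MAFK) and binds antioxidant response elements, where BACH1 otherwise competes for the same MAF partners and represses. Because the control acts mainly on the protein, the pathway is usually read from its target mRNAs, which encode enzymes that make and recycle glutathione and thioredoxin, supply NADPH, store iron and modify or export reactive compounds. In liver, this response protects cells from oxidative and xenobiotic stress.

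The antioxidant response element has the core letters TGACNNNGC. These letters were searched on both strands of RefSeq promoter windows (GRCh38.p14), each running from 250 bases before to 50 bases after a transcription start. Windows were listed for 29 of the 39 genes. The core was found for 9 of the 29 genes (31%), against 16.1% of all 27305 genes with a window. A core that begins with the AP-1 letters TGACTCA, TGACTCAGC, was found for 1 member, ME1 (0.689% of all genes), and TGACTCA alone, which lies within it, for BACH1, ME1 and OSGIN1 (6.05% of all genes). A match is a description of the letters and not evidence of binding, and sites outside the windows were not searched. The stretches below are shown because they hold these letters. The genes are members that the results turn on (TXNRD1, EPHX1, GCLM and OSGIN1), the member with TGACTCAGC (ME1) and KEAP1, whose protein delivers NRF2 for degradation. The stretches run 5′ to 3′ on the strand of the gene, capitals mark the motif, and a match in the reverse orientation begins with GC.
TXNRD1, upstream start (chr12:104215670-104215698, + strand): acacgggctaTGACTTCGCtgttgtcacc
TXNRD1, downstream start (chr12:104286920-104286948, + strand): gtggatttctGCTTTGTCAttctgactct
EPHX1 (chr1:225825266-225825294, + strand): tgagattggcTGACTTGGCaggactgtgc
GCLM (chr1:93909446-93909474, - strand): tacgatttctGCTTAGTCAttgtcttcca
KEAP1 (chr19:10502784-10502812, - strand): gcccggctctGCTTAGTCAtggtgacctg
ME1 (chr6:83431170-83431198, - strand): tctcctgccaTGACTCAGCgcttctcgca
OSGIN1 (chr16:83953133-83953159, + strand): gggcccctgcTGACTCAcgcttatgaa

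GCLM and KEAP1 hold the same 9 letters, GCTTAGTCA, at positions -34 to -26 and -31 to -23 from their starts. KEAP1 also holds another core, TGACACGGC, at -54 to -46. GCLM and KEAP1 had ratios of 3.97 and 0.743 with BDS4 (below), and whether the letters bear on these ratios was not tested. The core was present for 3 of the 9 members with a window that were higher with BDS4 than with TGF-β alone, and for 6 of the other 20.

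The libraries held between 17022369 and 22503094 counts. Levels are given as CPM, that is, per 1000000 counts after scaling by TMM, a normalisation between libraries. A floor of 3 counts corresponded to 0.126 to 0.178 CPM. Of 11 markers of stellate cells and myofibroblasts, 7 reached 1 CPM in some library, their summed level ranged from 4672 CPM (BDS4) to 9246 CPM (TGF-β), and LRAT, a marker of the quiescent cell, was at 0 counts throughout. The markers did not move together: from TGF-β alone to BDS4, COL1A1 went from 4705 to 103 CPM and PDGFRB from 136 to 5.98 CPM, while THY1 went from 119 to 222 CPM and VIM, most of the BDS4 sum, from 3551 to 4080 CPM. Markers of hepatocytes, leukocytes and endothelial cells summed to at most 5.57 CPM in any library. Those of cholangiocytes summed to 24.3 CPM with BDS4 and 105 CPM with TGF-β alone, mostly from SOX9. In bulk RNA, fewer cells of a type and less RNA per cell cannot be told apart. Mitochondrial ribosomal RNA took 0.903% of counts (0.899 to 0.907) with BDS4 and 0.212% to 0.248% in the other 3 libraries. Its part in the results with BDS4 was not tested.

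A gene is said to have risen or fallen where the ratio of 2 libraries was at least 2 in either direction and its interval excluded 1. This is a rule of size and not a test of the treatment. The comparisons of the compounds with TGF-β share the TGF-β library.

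Together the 39 genes took 0.644% of all counts (0.641 to 0.648) in the control, 0.577% (0.574 to 0.580) with TGF-β, 1.63% (1.63 to 1.64) with BDS4 and 0.606% (0.602 to 0.610) with RVX-208. The BDS4 library stood apart and the other 3 lay close together. The ferritin genes FTH1 and FTL accounted for 0.631% of counts (0.627 to 0.634) with BDS4 and for 0.25% to 0.313% in the others. Without them the share was 1.0% (0.998 to 1.01) with BDS4 and 0.327% to 0.345% in the others. Of the 38 measured members, 24 had their highest level in the BDS4 library (63.2%), against 38.9% of the 16099 genes kept by the filter.

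**Figure D1:**
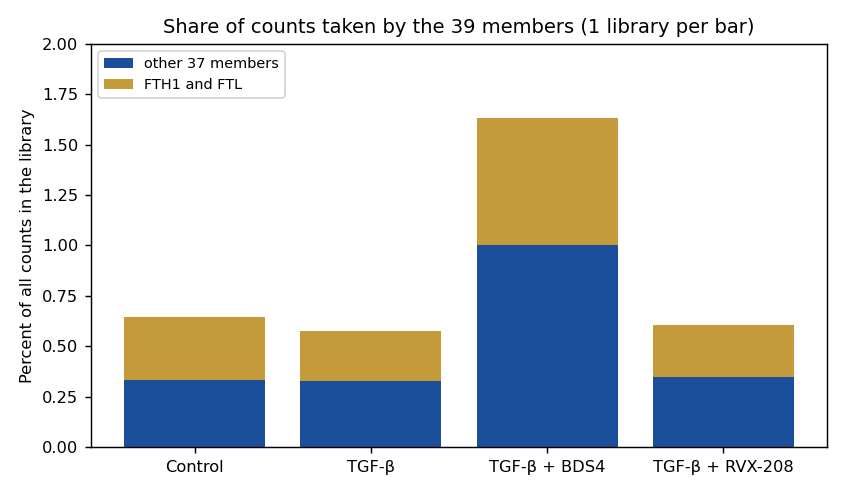
Percent of all counts in each library (vertical axis) taken by FTH1 and FTL and by the other 37 members, with 1 library per bar. The BDS4 bar reaches 1.63%, and the other 3 bars lie between 0.577% and 0.644%.

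The TGF-β library was set against the control, a comparison that holds the cytokine and any vehicle together. MAFK, a small MAF partner of both NRF2 and BACH1, stood at 33.9 CPM in the control and 125 CPM with TGF-β, a 3.68-fold rise (3.40 to 3.99). MAFF rose 2.44-fold (2.22 to 2.68), from 27.0 to 65.8 CPM. No other member rose and 0 fell. These 2 of 38 (5.26%) compare with 5.32% of all 16099 genes higher by the same rule, so the share of members that rose was near the background. The share of members that fell was 0%, against 4.37% of all genes. The median log2 ratio of the members was -0.15, and that of all genes -0.01.

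The other regulators moved by less than 2-fold with TGF-β. MAFG stood at 49.5 and 84.2 CPM in the control and with TGF-β (1.70-fold, 1.58 to 1.83), and BACH1, the repressor, at 48.2 and 83.7 CPM (1.74-fold, 1.61 to 1.87). KEAP1 stood at 57.1 and 81.4 CPM, a ratio of 1.42 (1.33 to 1.53). NFE2L2 was at 24.3 CPM in the control and 17 CPM with TGF-β, a ratio of 0.699 (0.612 to 0.798). Thus the mRNAs of all 3 small MAF proteins, BACH1 and KEAP1 had ratios above 1 while that of NRF2 itself had a ratio below 1. The NFE2L2 values carry a further limit: its deposited FPKM corresponds to a gene length of 82.6 kb, 13.8 times its exon length in GENCODE 29 (5.98 kb), whereas this ratio lay between 0.937 and 2.99 for the other 38 members. Which reads were counted for NFE2L2 was not tested, and its values are uncertain.

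Among the target genes, the largest differences below 1 with TGF-β were those of GSR and TXNRD1, the enzymes that reduce glutathione and thioredoxin at the expense of NADPH. GSR stood at 55.1 CPM in the control and 31.8 CPM with TGF-β (ratio 0.577, 0.525 to 0.632). TXNRD1 stood at 329.8 and 194 CPM (ratio 0.589, 0.567 to 0.611). BLVRB, which reduces biliverdin, had a ratio of 0.635 (0.567 to 0.710), the exporter gene ABCC4 of 0.641 (0.593 to 0.693) and SLC7A11 of 0.694 (0.646 to 0.745). None of these reached 2-fold. The subunits of glutamate-cysteine ligase, GCLC and GCLM, had ratios of 0.970 (0.885 to 1.06) and 1.11 (1.03 to 1.19), and SRXN1 and PRDX1 of 1.02 (0.959 to 1.08) and 1.01 (0.976 to 1.04).

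**Figure D2:**
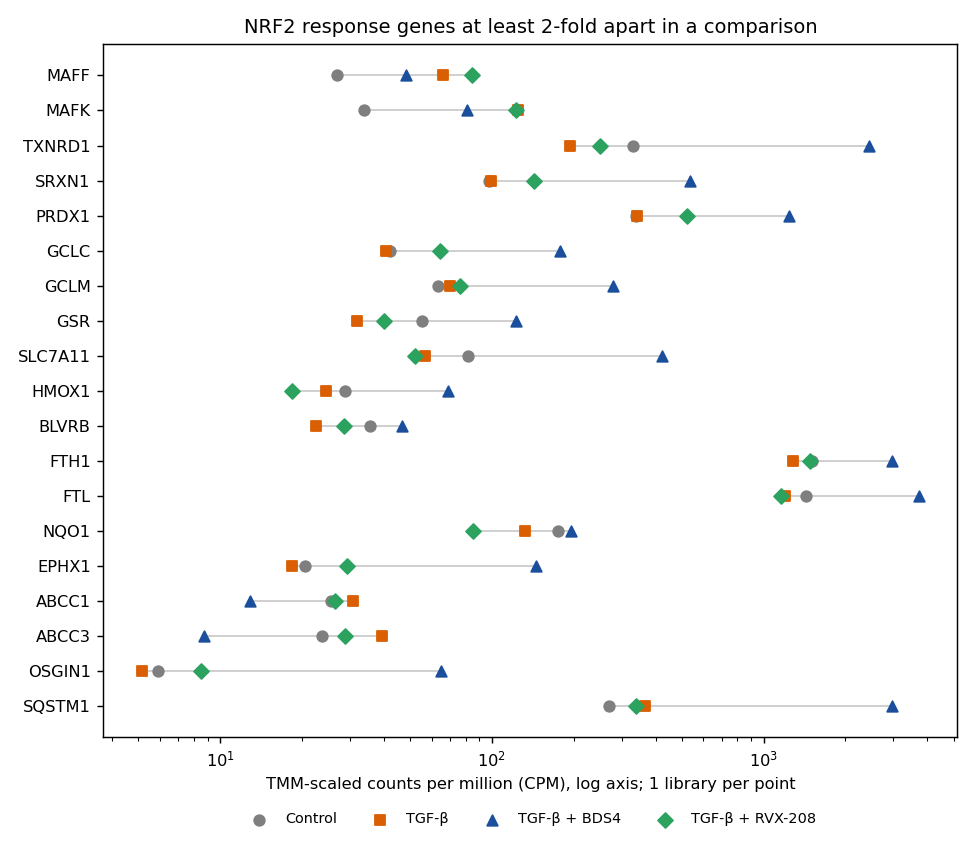
TMM-scaled CPM on a log axis (horizontal) of the 19 members that were at least 2-fold apart in some comparison, with 1 point per library and a grey line from the lowest to the highest. The BDS4 triangle lies furthest right for 15 of the 19 genes, and furthest left for ABCC1 and ABCC3.

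BDS4 added to TGF-β was set against TGF-β by itself. The rises lay in the thioredoxin arm (3 of 4), the glutathione arm (4 of 5), haem and iron handling (4 of 4) and the further targets (2 of 3), with 1 of the 8 measured detoxification enzymes. None of the 6 regulators, 4 genes of NADPH supply and 4 ABCC exporters rose, and 2 exporters fell. In all, 14 of 38 members rose (36.8%), against 14.5% of all genes, and 2 fell (5.26%), against 17.7% of all genes. The median log2 ratio was 0.56 over the members and -0.01 over all genes. The share of members that rose was above the background and the share that fell was below it. As medians and counts over a list chosen with earlier results of these data known, these are descriptions of the libraries.

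In the thioredoxin arm, TXNRD1 (ENSG00000198431, chr12:104215779-104350305), the cytosolic thioredoxin reductase whose promoter stretches are shown above, stood at 329.8 CPM in the control, 194 with TGF-β, 249 with RVX-208 and 2449 with BDS4. This was a 12.6-fold rise over TGF-β alone (12.2 to 13.0), and the BDS4 library was far above the other 3. SRXN1, sulfiredoxin, which repairs overoxidised peroxiredoxins, stood at 97.6, 99.2, 143 and 536 CPM in the same order and rose 5.40-fold (5.16 to 5.66). GENCODE 29 places 85.0% of the SRXN1 exon bases also in AL121758.1, which had at most 1 count in any library. PRDX1, a peroxiredoxin that breaks down hydrogen peroxide, stood at 339, 342, 524 and 1241 CPM and rose 3.63-fold (3.54 to 3.73). TXN, thioredoxin itself, stood at 188, 151, 151 and 238 CPM, and its ratio of 1.57 (1.51 to 1.64) did not meet the rule. The reductase, the repair enzyme and the peroxidase rose, and thioredoxin did not reach 2-fold. PRDX1 shares 24.9% of its exon bases with MMACHC on the opposite strand, which had 20 counts with BDS4 and 322 with TGF-β.

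In the glutathione arm, SLC7A11 (ENSG00000151012, chr4:138164097-138242349), the light chain of the cystine/glutamate exchanger that imports the cysteine source, stood at 81.5 CPM in the control, 56.6 with TGF-β, 52.3 with RVX-208 and 424 with BDS4. It rose 7.49-fold (7.06 to 7.96) with BDS4. GCLC, the catalytic subunit of the rate-limiting ligase, stood at 42.0, 40.8, 64.4 and 178 CPM in that order and rose 4.37-fold (4.06 to 4.70). GCLM, its modifier subunit, stood at 63.1, 70.0, 76.3 and 278 CPM and rose 3.97-fold (3.75 to 4.21). The intervals of the 2 subunits' ratios overlapped. GSR stood at 55.1, 31.8, 40.2 and 123 CPM and rose 3.86-fold (3.55 to 4.2). GSS, glutathione synthetase, which performs the step after the ligase, stood at 101, 89.7, 96.2 and 65.3 CPM, with its lowest value in the BDS4 library and a ratio of 0.727 (0.678 to 0.780). The mRNAs of SLC7A11, GCLC, GCLM and GSR rose, and that of GSS had a ratio below 1.

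Of the haem and iron genes, HMOX1, haem oxygenase 1, stood at 28.9 CPM in the control, 24.6 with TGF-β, 18.4 with RVX-208 and 69.2 with BDS4, a 2.82-fold rise (2.55 to 3.11). FTL, the ferritin light chain, stood at 1436, 1200, 1160 and 3719 CPM in that order and rose 3.10-fold (3.06 to 3.14). FTH1, the ferritin heavy chain, stood at 1510, 1278, 1484 and 2966 CPM and rose 2.32-fold (2.29 to 2.35). All 3 were highest with BDS4. FTH1 has near-identical pseudogenes, of which 25 named copies together held 1975 counts with TGF-β and 3827 with BDS4, and how reads were divided between copies is not given in the sources. FTH1 also shares 62.4% of its exon bases with BEST1 on the opposite strand (at most 175 counts). BLVRB stood at 35.5, 22.5, 28.5 and 46.6 CPM and rose 2.07-fold (1.86 to 2.31), and this call ended under total-count scaling (log2 ratio 0.95) and without the filter on low counts (0.99).

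Of the further targets, OSGIN1, an oxidative stress-induced growth inhibitor, stood at 5.90 CPM in the control, 5.16 with TGF-β, 8.49 with RVX-208 and 65.0 with BDS4, a 12.6-fold rise (10.4 to 15.4). SQSTM1 (ENSG00000161011, chr5:179806398-179838078) encodes p62, an autophagy receptor that binds KEAP1. It stood at 270.3, 366, 340.1 and 2973 CPM in the same order and rose 8.12-fold (7.93 to 8.31). No core letters were found in its RefSeq windows, and sites outside them were not searched. It shares 20.7% of its exon bases with MRNIP on the opposite strand, which had between 823 and 1070 counts. TRIM16 stood at 40.8, 29.8, 21.0 and 20.4 CPM, with a ratio of 0.687 (0.606 to 0.778) for BDS4 over TGF-β. TRIM16 is uncertain: it has a near-identical copy, TRIM16L, and shares 23.5% of its exon bases with AC005324.3, which had 152 counts with TGF-β and 0 in the other libraries. Summed with its copy, its log2 ratio was -0.85 in place of -0.54.

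Of the 8 measured detoxification enzymes, 1 met the rule. EPHX1, microsomal epoxide hydrolase, stood at 20.6 CPM in the control, 18.4 with TGF-β, 29.4 with RVX-208 and 145 with BDS4, a 7.87-fold rise (7.09 to 8.75). NQO1, the quinone reductase most often used as a readout of NRF2, stood at 175, 132, 85.5 and 196 CPM in that order. Its BDS4 value was 1.48-fold (1.41 to 1.55) that of TGF-β alone, under the rule. Among the aldo-keto reductases, AKR1B1 had a ratio of 1.40 (1.33 to 1.47), AKR1C1 of 1.5 (1.25 to 1.81), AKR1C2 of 0.563 (0.440 to 0.717) and AKR1C3 of 0.739 (0.555 to 0.980). The 3 AKR1C genes are similar in sequence and were low, at most 13.6 CPM, so each is uncertain, and their summed log2 ratio was -0.05. AKR1B10 was listed at 0 counts with BDS4 and RVX-208, 1 in the control and 2 with TGF-β. CBR1, a carbonyl reductase, had a ratio of 1.32 (1.25 to 1.39) and UGDH, which makes UDP-glucuronate, of 0.834 (0.778 to 0.894).

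None of the 4 genes grouped under NADPH supply reached 2-fold with BDS4. PGD, of the oxidative branch of the pentose phosphate pathway, makes NADPH. It stood at 145 CPM in the control, 172 with TGF-β, 228 with RVX-208 and 299 with BDS4, a ratio to TGF-β of 1.74 (1.67 to 1.81). ME1, malic enzyme, which also makes NADPH and whose promoter holds TGACTCAGC, stood at 41.0, 35.1, 39.8 and 60.8 CPM (ratio 1.73, 1.58 to 1.90). TALDO1 and TKT, of the non-oxidative branch, had ratios of 1.08 (1.02 to 1.15) and 0.670 (0.646 to 0.695).

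Of the 4 exporters, 2 fell and 0 rose. ABCC3 stood at 23.6 CPM in the control, 39.5 with TGF-β, 28.9 with RVX-208 and 8.68 with BDS4, a 4.56-fold fall (3.87 to 5.38). ABCC1, which exports glutathione conjugates, stood at 25.5, 30.7, 26.4 and 12.9 CPM and fell 2.38-fold (2.06 to 2.75). Both were lowest with BDS4, below the control. ABCC4 stood at 72.8, 46.6, 39.9 and 30.8 CPM (ratio 0.660, 0.597 to 0.730), and ABCC2 at no more than 1.86 CPM, where its interval (0.705 to 1.86) spanned 1.

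No regulator met the rule with BDS4. NFE2L2 stood at 17 CPM with TGF-β and 25.2 with BDS4 (ratio 1.48, 1.29 to 1.70), with the limit on its counting given above. KEAP1 had a ratio of 0.743 (0.690 to 0.799) and BACH1 of 1.01 (0.945 to 1.08). MAFG stood at 84.2 CPM with TGF-β and 122 with BDS4 (ratio 1.45, 1.37 to 1.54). MAFF had a ratio of 0.732 (0.674 to 0.794) and MAFK of 0.648 (0.609 to 0.689). MAFF stood at 48.1 CPM with BDS4 and 84.8 with RVX-208, its highest level, and MAFK at 80.9 and 123 CPM. Among the small MAF genes, MAFG was at its highest with BDS4, and MAFF and MAFK lay between control and TGF-β.

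**Figure D3:**
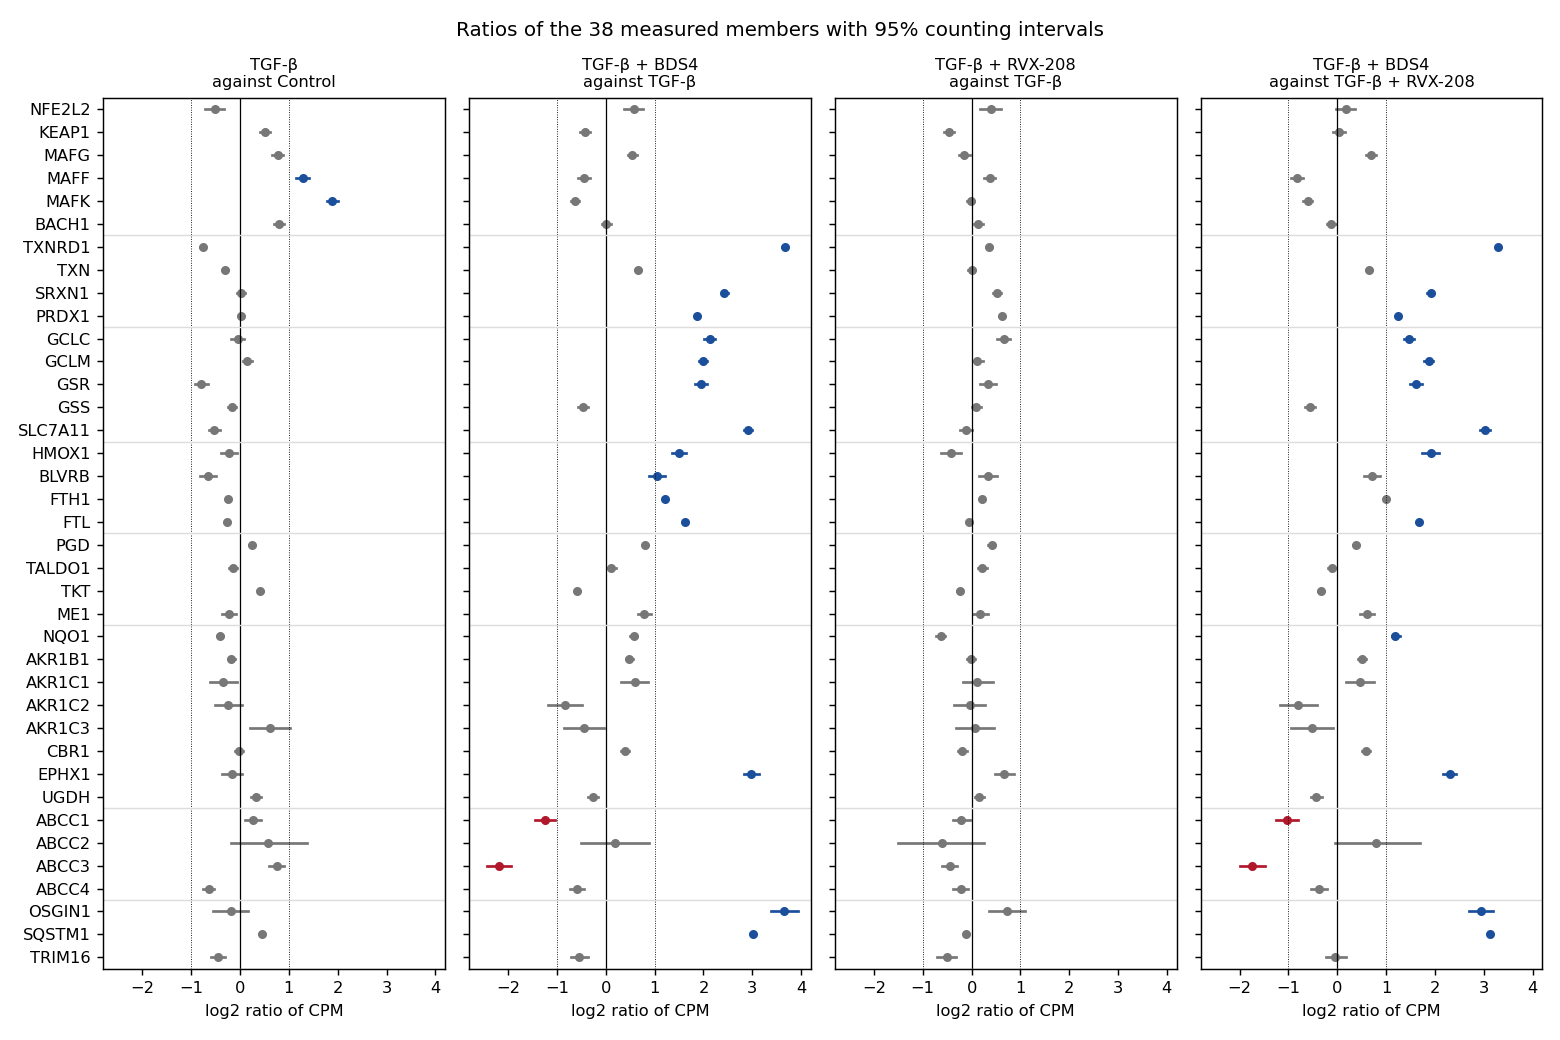
Log2 ratio of CPM (horizontal axis) of each of the 38 measured members in the 4 comparisons, with 95% counting intervals as bars, blue for risen, red for fallen, grey for neither, dotted lines at 2-fold and pale lines between roles. The panel of BDS4 against TGF-β holds 14 blue and 2 red points, and that of RVX-208 against TGF-β holds none.

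RVX-208 was set against the same TGF-β library. No member rose or fell: 0 of 38 were 2-fold apart, against 2.94% of all genes higher and 5.25% lower. The median log2 ratio was 0.09 over the members and 0.00 over all genes. The ratios lay between 0.648 and 1.65. The highest were those of OSGIN1 (1.65, 1.28 to 2.12), EPHX1 (1.60, 1.40 to 1.82), GCLC (1.58, 1.44 to 1.73), PRDX1 (1.53, 1.49 to 1.58) and SRXN1 (1.44, 1.36 to 1.53). None of these met the rule. The lowest was that of NQO1, at 85.5 CPM against 132 (0.648, 0.607 to 0.690), which was the lowest NQO1 value of the 4 libraries. TXNRD1 had a ratio of 1.28 (1.23 to 1.34), HMOX1 of 0.749 (0.649 to 0.863), SLC7A11 of 0.924 (0.847 to 1.01) and SQSTM1 of 0.929 (0.898 to 0.961). A value within 2-fold does not show that RVX-208 left these genes alone.

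BDS4 and RVX-208 were given at the same dose and for the same time, and their libraries were compared directly. With BDS4, 13 of 38 members were higher by the rule (34.2%), against 11.7% of all genes, and 2 were lower (5.26%), against 13.1%. The median log2 ratio was 0.60 over the members and -0.01 over all genes. TXNRD1 was 9.83-fold higher (9.52 to 10.1), SQSTM1 8.74-fold (8.51 to 8.98), SLC7A11 8.11-fold (7.56 to 8.70) and OSGIN1 7.65-fold (6.43 to 9.15). HMOX1 was 3.76-fold higher (3.32 to 4.27), and its level with RVX-208 was the lowest of the 4. NQO1, not called against TGF-β, was 2.29-fold higher with BDS4 than with RVX-208 (2.15 to 2.43). FTH1 lay just under the rule at 2.0-fold (1.97 to 2.03) and passed it with DESeq2 size factors and with its copies summed, and BLVRB was at 1.64 (1.47 to 1.83). ABCC3 was 3.33-fold lower (2.80 to 3.98) and ABCC1 2.05-fold lower (1.76 to 2.40) with BDS4. Members that differed little between the compounds included KEAP1 (ratio 1.02, 0.940 to 1.11), TRIM16 (0.975, 0.844 to 1.13) and NFE2L2 (1.13, 0.987 to 1.29).

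**Figure D4:**
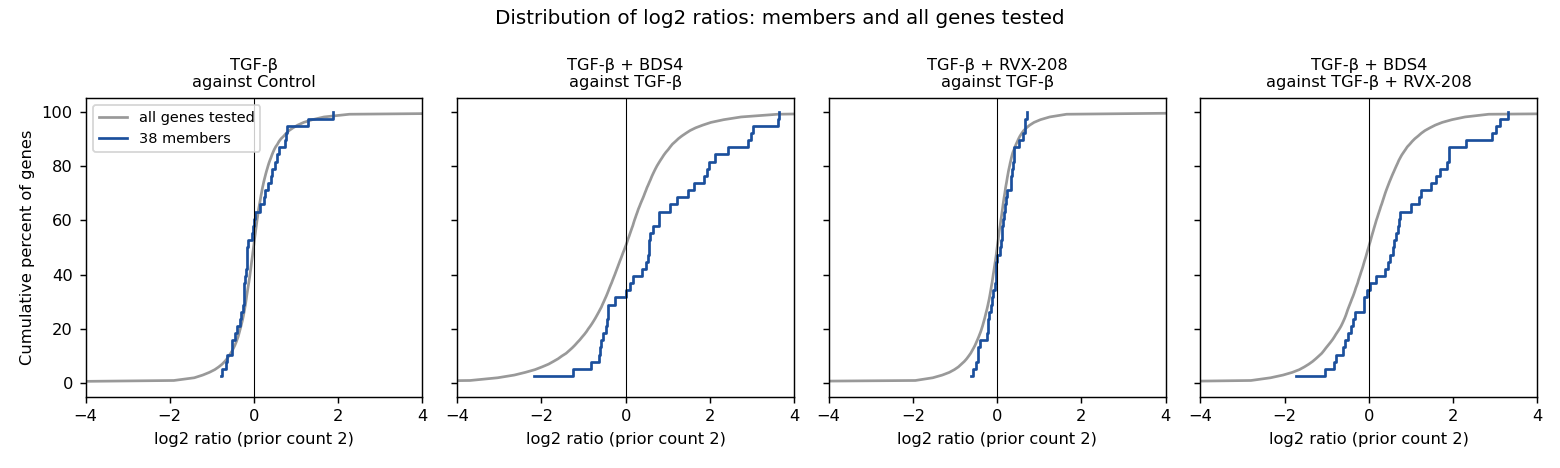
Cumulative percent of genes (vertical axis) against log2 ratio with a prior count of 2 (horizontal axis), for the 38 measured members (blue steps) and for all 16099 genes kept by the filter (grey). With BDS4 against TGF-β the member median is 0.56 and that of all genes -0.01, while in the panel of RVX-208 against TGF-β the medians are 0.09 and 0.00.

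Further genes of antioxidant defence, glutathione and iron metabolism were read from a list of 67, of which 66 had 1 row in the table and 59 of these passed the filter. With TGF-β, 3 rose (5.08%: SLC39A14, BACH2 and PIR) and 1 fell (1.69%: TXNIP), against 5.32% and 4.37% of all genes. With BDS4 against TGF-β, 12 rose (20.3%) and 6 fell (10.2%), against 14.5% and 17.7% of all genes. With RVX-208 against TGF-β, 1 rose (1.69%: SESN3) and 2 fell (3.39%: PIR and CBR3), against 2.94% and 5.25% of all genes. With BDS4 against RVX-208, 12 were higher (20.3%) and 4 lower (6.78%), against 11.7% and 13.1% of all genes.

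Of this list, SESN3, a sestrin that restrains mTORC1, stood at 4.61 CPM in the control, 5.80 with TGF-β, 18.6 with RVX-208 and 93.6 with BDS4, and rose 16.1-fold (13.5 to 19.5) with BDS4 and 3.21-fold (2.60 to 3.97) with RVX-208. CTH, which makes cysteine from cystathionine, rose 7.0-fold (5.32 to 9.35) with BDS4, from 2.72 to 19.0 CPM. GLRX, glutaredoxin, rose 4.57-fold (4.02 to 5.21), from 13.3 to 60.7 CPM. CHAC1, which degrades glutathione and is a known target of the amino acid response factor ATF4, rose 4.01-fold (3.61 to 4.47), from 20.1 to 80.5 CPM. SLC7A11 and CTH are, like CHAC1, also known as targets of ATF4, whose part in these rises was not tested.

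The mitochondrial thioredoxin reductase gene TXNRD2 fell 7.95-fold (6.86 to 9.25) with BDS4, from 77.5 to 9.76 CPM, whereas the cytosolic TXNRD1 rose. GPX8, a peroxidase of the endoplasmic reticulum, fell 11.8-fold (9.70 to 14.5), from 62.5 to 5.30 CPM. With RVX-208, TXNRD2 stood at 46.5 CPM and GPX8 at 46.0 CPM, and neither met the rule against TGF-β.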

How the data were processed

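RNA-seq of 4 libraries was analysed, 1 per group. The authors deposited raw counts per gene and FPKM values. The deposited FPKM values were made by the authors with StringTie 1.3.0, per the series' design text, and were used here only to read each gene's implied length. The submitters' processing notes name GRCh38, TopHat2 2.0.6 and CASAVA 1.8. The library kit keeps strand, per the design text. For the counting, the program, the annotation release and the setting for strand were not given in the sources used here. Columns were matched to groups through the sample descriptions, and for BDS4 the column name is a code, so that match rests on the description alone.

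TMM factors (edgeR 4.0.16, R 4.3.3) of 1.06, 1.01, 0.943 and 0.989 for control, TGF-β, BDS4 and RVX-208 were computed over genes with at least 1 CPM in 1 library. After scaling, 16099 genes with at least 1 CPM in 1 library were kept. Ratios and shares of counts carry 95% Clopper-Pearson intervals, conditional on the summed counts for ratios. Ratios use no prior count, and medians use log2 ratios with a prior count of 2. No test across replicates was possible.

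Members called in any comparison are given with their value in every library. The members and lists were chosen with earlier results of these data known. Positions and shared exons came from GENCODE 29 (GRCh38), and promoters from RefSeq (GRCh38.p14). Of the additional list, genes past 4-fold with at least 10 CPM are named with values. Software was Python 3.11.15 with scipy 1.17.1, pandas 2.3.3, numpy 2.4.6 and, for plots, matplotlib 3.10.9. The 8 alternatives covered scaling (total counts, DESeq2 1.42.0), filters, fold limits, shared exons and near-identical copies.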

Additional observations from a re-analysis of the deposited data

How the results depend on the processing

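The counts of members called stayed within 1.5 times under total-count scaling, DESeq2 size factors, no filter, a filter at 5 CPM, shared exons summed and near-identical copies summed. The call of BLVRB with BDS4 ended under total-count scaling and without the filter, and that of FTH1 between the compounds was gained with DESeq2 size factors (log2 ratio 1.0) and with copies summed (1.01). Other changes came from the fold limit itself. At 1.5-fold, TGF-β against control had 10 members called, 6 higher and 4 lower (10.1% and 8.99% of all genes). RVX-208 against TGF-β had 5, 4 higher and 1 lower (6.60% and 10.4% of all genes). BDS4 against TGF-β had 23, 18 higher and 5 lower (24.5% and 26.5% of all genes), and BDS4 against RVX-208 also 23, 18 higher and 5 lower (21.0% and 21.8% of all genes). At 3-fold, TGF-β against control had 1 called, higher (2.47% of all genes higher and 1.71% lower). BDS4 against TGF-β had 12, 11 higher and 1 lower (6.99% and 9.75% of all genes). BDS4 against RVX-208 had 1 lower (6.11% of all genes). Those still higher were TXNRD1, SQSTM1, SLC7A11, OSGIN1, EPHX1, HMOX1, SRXN1, GCLM, FTL and GSR (5.46% of all genes were higher). Total-count scaling moved the median of all genes with BDS4 from -0.01 to -0.11, and 12.5% of genes were then higher and 19.8% lower. With BDS4 against TGF-β, the log2 ratio of BACH1 went from 0.01 to -0.09 under total-count scaling. That of AKR1C1 went from 0.59 to -0.05 with AKR1C1, AKR1C2 and AKR1C3 summed. No paired analysis was possible because each group had 1 library. For the same reason no library could be left out. Depth limits genes of few counts, such as ABCC2 (18 to 38 counts) and AKR1B10 (at most 2).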

Other observations

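Of the 38 measured members, 12 had their lowest level in the control (31.6%), 12 with TGF-β (31.6%), 7 with BDS4 (18.4%) and 7 with RVX-208 (18.4%). Across all genes the shares were 24.3%, 21.7%, 39.2% and 14.8% in that order. The 7 members lowest with BDS4 were GSS, AKR1C2, TKT, ABCC1, ABCC3, ABCC4 and TRIM16.

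The gene length that the deposited FPKM implies was longer than the exon length in GENCODE 29 for most members (median 1.65 times over the 38 members other than NFE2L2), and NFE2L2 stood apart at 13.8 times. AC019080.1, which shares 17.6% of the NFE2L2 exon bases, had 60 to 70 counts in each library.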
